A study of Mus musculus with 3 samples.

Results

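Small nucleolar RNA (snoRNA) genes of the mouse were examined in chromatin-bound RNA of macrophages. The entries were every gene that the GENCODE M21 annotation types as snoRNA, which gave 1507 of 55536 annotated gene entries (2.71%). Each of them had 1 annotated transcript, with a length of 35 to 325 bases and a median of 127. By symbol, 108 were box C/D snoRNAs, 42 were box H/ACA snoRNAs, 2 were small Cajal body RNAs and 1355 carried other names, mostly provisional ones that begin with Gm. The 1507 entries held 1364 distinct sequences, and 183 entries shared their sequence with at least 1 other entry, so that reads of those copies cannot be told apart.

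The libraries came from primary macrophages grown from bone marrow of C57BL/6J mice and stimulated with lipid A, the part of bacterial lipopolysaccharide that Toll-like receptor 4 detects, at 100 ng/ml for 90 minutes. Chromatin-fraction RNA was depleted of ribosomal RNA and sequenced in 1 group of 3 biological replicates, starting from 1 µg of RNA in replicate 1, 250 ng in replicate 2 and 500 ng in replicate 3. Every library had this strain, stimulus, dose and time, so no condition was compared, and the amount of RNA cannot be told apart from the replicate. All 3 libraries carried the same donor label, and sex and age were not recorded. The p-values below reflect variation among these 3 libraries, some of which may be technical.

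snoRNAs guide the chemical modification of other RNAs by base pairing. Box C/D snoRNAs direct methylation of ribose and bind fibrillarin, Nop56, Nop58 and Snu13, whereas box H/ACA snoRNAs direct pseudouridylation and bind dyskerin, Nop10, Nhp2 and Gar1. Most mammalian snoRNAs are cut out of introns of a host gene, often one for a ribosomal protein or a translation factor, while U3, U8 and U13 are transcribed from genes of their own and act in the cleavage or modification of ribosomal RNA precursors.

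The sequences below, from the GENCODE M21 transcripts on the mm10 genome, are those of entries on which the results turn. Capitals in the first 2 groups mark box letters where they were found: TGATGA within the first 20 bases (box C), CTGA within the last 15 bases (box D), and ACA 3 bases from the 3′ end (box H/ACA). The first group led the counts or the TPM.
Scarna10, bases 1 to 100 of 325 (chr6:125186359-125186683, - strand): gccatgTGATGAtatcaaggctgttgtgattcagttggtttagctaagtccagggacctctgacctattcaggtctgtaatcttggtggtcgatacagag
Scarna10, bases 226 to 325 (same entry): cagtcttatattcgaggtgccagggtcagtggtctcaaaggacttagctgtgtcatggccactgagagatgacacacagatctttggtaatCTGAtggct
Gm22988 (chr11:69669635-69669778, - strand, 144 bases): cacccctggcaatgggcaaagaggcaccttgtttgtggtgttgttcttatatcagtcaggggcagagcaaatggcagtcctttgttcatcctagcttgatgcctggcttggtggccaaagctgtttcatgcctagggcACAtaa
Gm25835 (chr11:69668852-69668995, - strand, 144 bases): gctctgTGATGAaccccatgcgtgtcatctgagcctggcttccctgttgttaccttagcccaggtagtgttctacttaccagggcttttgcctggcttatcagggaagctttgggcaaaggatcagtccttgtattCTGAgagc
Gm26447 (chr16:23111301-23111429, + strand, 129 bases): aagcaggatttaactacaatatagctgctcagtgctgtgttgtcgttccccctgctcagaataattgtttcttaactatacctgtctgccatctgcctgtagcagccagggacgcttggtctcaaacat
Snord15b (chr7:99479563-99479707, - strand, 145 bases): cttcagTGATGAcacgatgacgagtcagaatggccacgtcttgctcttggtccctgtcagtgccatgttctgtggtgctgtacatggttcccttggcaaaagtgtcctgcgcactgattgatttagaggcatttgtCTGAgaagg
The next group shows entries whose value depended on the quantification or on their length.
Snord22 (chr19:8725866-8725991, + strand, 126 bases): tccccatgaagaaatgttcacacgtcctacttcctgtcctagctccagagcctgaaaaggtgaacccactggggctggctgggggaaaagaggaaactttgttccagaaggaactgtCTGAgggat
Gm24339 (chr9:15326464-15326539, - strand, 76 bases): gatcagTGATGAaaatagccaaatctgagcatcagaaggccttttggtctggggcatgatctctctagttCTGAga
Snord32a (chr7:45127382-45127464, - strand, 83 bases): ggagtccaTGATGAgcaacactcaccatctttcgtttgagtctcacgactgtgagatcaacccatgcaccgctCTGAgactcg
Gm24336 (chr19:44113979-44114124, - strand, 146 bases): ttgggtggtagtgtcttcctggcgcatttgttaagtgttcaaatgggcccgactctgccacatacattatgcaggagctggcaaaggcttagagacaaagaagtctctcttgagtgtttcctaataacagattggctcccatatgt
Snora7a (chr6:115807975-115808114, - strand, 140 bases): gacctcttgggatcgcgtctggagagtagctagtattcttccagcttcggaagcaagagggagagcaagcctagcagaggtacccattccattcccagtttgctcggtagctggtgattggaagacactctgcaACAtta
The last group shows a pair of near-identical genes and the longer form of U3. In the U17 snoRNAs capitals mark the 7 of 205 bases at which they differ, so that reads can often not be assigned to 1 of them alone.
Snora73a (chr4:132352775-132352979, - strand, 205 bases): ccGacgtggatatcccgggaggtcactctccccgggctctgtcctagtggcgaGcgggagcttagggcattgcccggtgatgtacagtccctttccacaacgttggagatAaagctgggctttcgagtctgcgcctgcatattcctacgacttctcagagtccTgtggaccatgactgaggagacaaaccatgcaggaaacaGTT
Snora73b (chr4:132352322-132352526, - strand, 205 bases): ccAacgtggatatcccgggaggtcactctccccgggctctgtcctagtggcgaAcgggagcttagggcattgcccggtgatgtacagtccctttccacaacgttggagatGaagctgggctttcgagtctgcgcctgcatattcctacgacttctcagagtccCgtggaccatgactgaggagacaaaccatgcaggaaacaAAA
In the longer form of U3 the capital marks the last base, which its shorter form lacks.
Rnu3b1 (chr11:87443237-87443452, + strand, 216 bases): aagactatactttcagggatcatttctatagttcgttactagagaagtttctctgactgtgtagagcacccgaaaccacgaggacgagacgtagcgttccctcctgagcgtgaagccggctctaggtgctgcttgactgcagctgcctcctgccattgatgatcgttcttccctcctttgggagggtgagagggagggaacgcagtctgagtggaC

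Each library had been quantified by 2 routes. The alignment-based tables give expected counts per gene, and the alignment-free tables give estimated counts per transcript, which were summed to genes. Both routes also give TPM, an abundance per length, in which a count is divided by an effective length, the number of positions in the RNA at which a fragment can start, and scaled to a fixed total. The libraries held 11277198, 24965749 and 19794886 expected counts (replicates 1 to 3). A locus of ribosomal RNA sequence (Gm26917, CT010467.1 and Gm42418) took 9.45%, 50.9% and 38.4% of the annotated counts, and 7715311, 10036048 and 9964310 counts lay in protein-coding genes. All 9 macrophage markers passed a mean count of 10 (3.02 to 285 TPM, highest for Cybb). The same minimum was passed by 1 of 4 T cell markers (Cd4, 0.983 TPM), 3 of 4 stromal markers (at most 0.27 TPM), and no marker of B cells (0 of 4), neutrophils (0 of 5) or neurons (0 of 3, all listed at 0).

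snoRNA entries took a small share of the counts and a large share of the TPM. They held 0.432%, 0.305% and 0.279% of the expected counts in replicates 1 to 3 (0.339% ± 0.082, SD, n = 3), but 42.9%, 31.1% and 34.1% of the alignment-based TPM (36.0% ± 6.13). In the alignment-free tables the same entries held 0.351%, 0.238% and 0.235% of the counts (0.275% ± 0.0662) and 10.5%, 4.33% and 5.83% of the TPM (6.89% ± 3.22). The alignment-based share was above the alignment-free share of the same library in 3 of 3 libraries, for counts and for TPM, and for TPM the ranges did not overlap either. Replicate 1 had the highest share on all 4 measures. In such bulk libraries, fewer cells with an RNA and less of it per cell cannot be told apart. With the ribosomal RNA locus left out of the total, the mean share of expected counts was 0.517% ± 0.0911 and replicate 2 had the highest (0.477%, 0.621% and 0.452%).

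**Figure D1:**
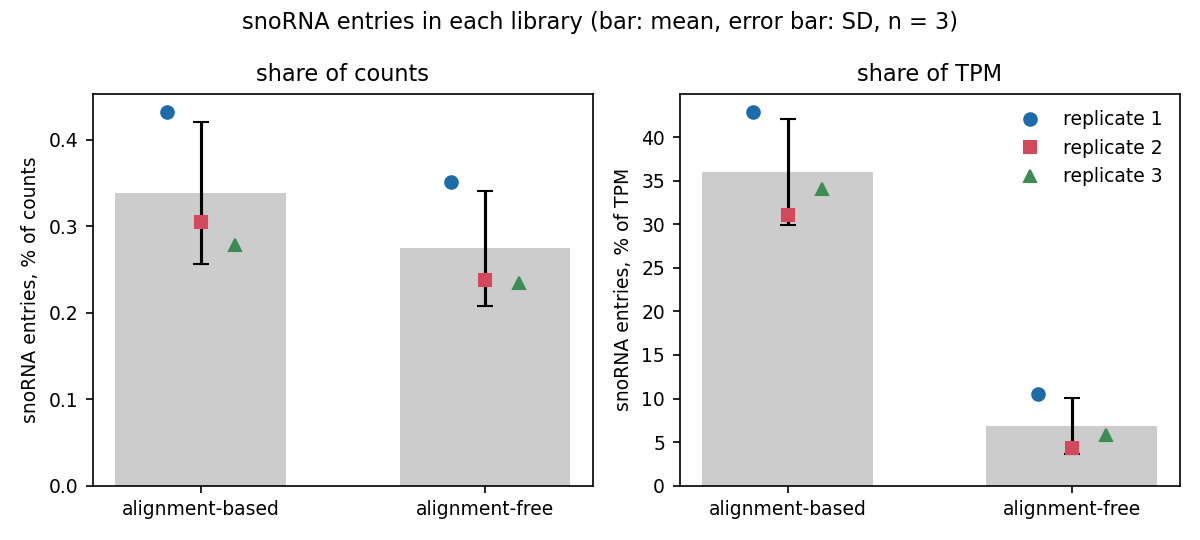
Share of counts (left) and of TPM (right) that lay in the 1507 snoRNA entries, in percent of each table, for the alignment-based and the alignment-free quantification; points are the 3 replicates, bars their mean and error bars the SD (n = 3). The shares of counts lie between 0.235% and 0.432% on both routes, while the shares of TPM lie between 31.1% and 42.9% in the alignment-based tables and between 4.33% and 10.5% in the alignment-free ones.

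A few entries made up most of both sums, and they were not the same ones. Scarna10, a small Cajal body RNA of the family that guides modification of spliceosomal RNAs, held 40.0%, 28.4% and 35.8% of all snoRNA counts in replicates 1 to 3. It lies on the same strand as Ncapd2, which encodes a condensin subunit, and overlaps an exon of a transcript of that gene. Its expected counts were 19208, 21542 and 19743, close to the alignment-free 19717, 24094 and 21536. At 325 bases it is the longest of the 1507 entries, its effective length was 122, 88.0 and 99.1 bases, and its TPM were 11196, 8958 and 9390. The 10 entries with the highest mean count took 86.4%, 76.5% and 81.3% of the snoRNA counts.

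The highest TPM belonged to 3 much shorter RNAs, Gm22988 and Gm26447 from the hosts Eif4a1 and Eif4a2, genes of the RNA helicase of translation initiation, and Snord15b from Rps3, a gene of the small ribosomal subunit. Together they held 60.0%, 41.1% and 54.8% of all snoRNA TPM. Gm22988 had 7838, 3979 and 4326 expected counts, fewer than Scarna10 in each library, on an effective length of 4.11, 2.86 and 3.23 bases, and reached 135839, 50872 and 63199 TPM. Gm26447 had 1428, 1335 and 2274 counts on 1.51, 1.13 and 1.26 effective bases, with 67340, 43025 and 85096 TPM. Snord15b, a box C/D snoRNA, had 3275, 2771 and 2785 counts and 53787, 33712 and 38682 TPM. Gm22988 and Snord15b were highest in replicate 1, and Gm26447 was highest in replicate 3. In the alignment-free tables, where the effective length of a 144-base entry was 24.2, 26.2 and 27.0 bases, Gm22988 had 7966, 4304 and 4625 counts and 19772, 2907 and 4887 TPM. The mean TPM was 9.07 times higher in the alignment-based tables for Gm22988, 19.6 times for Gm26447 and 8.93 times for Snord15b, although the counts of these entries were close on both routes.

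**Figure D2:**
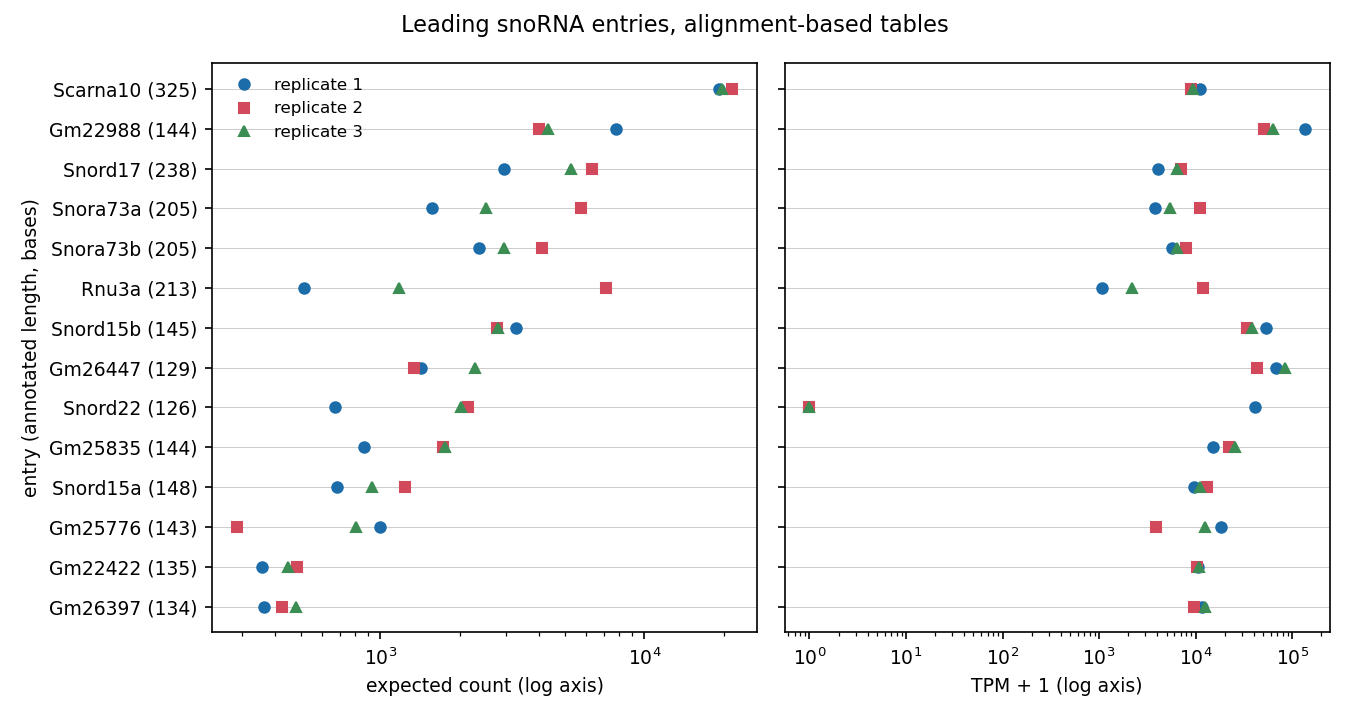
Expected counts (left, log axis) and TPM + 1 (right, log axis) of the 14 snoRNA entries that were among the 10 highest in mean count or mean TPM in the alignment-based tables, each with its annotated length in bases; colours and symbols are the 3 replicates. Scarna10 leads in counts but not in TPM, and Snord22 is listed at 0 TPM in replicates 2 and 3 in spite of 2154 and 2025 counts.

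Most snoRNA TPM lay on entries with an effective length of a few bases, and many entries had none. In the alignment-based tables effective length was 0 for 667, 758 and 721 of the 1507 entries in replicates 1 to 3, or 44.3%, 50.3% and 47.8%, against 8.33%, 8.74% and 8.61% of all annotated entries. The longest entry at 0 had 124, 127 and 126 bases, and the shortest above 0 had 125, 128 and 127 bases with an effective length of 1.06, 1.05 and 1.07. All entries at 0 were listed at 0 TPM, also the 6, 11 and 6 of them that held counts (29.7, 2329 and 2136 counts in all). Entries with an effective length above 0 and under 5 bases held 35.4%, 19.4% and 28.1% of the snoRNA counts and 89.2%, 76.9% and 87.1% of the snoRNA TPM. In the alignment-free tables no entry was at 0, and the smallest effective length was 9.70, 9.19 and 14.2 bases. The labels give a fragment size range of 250 to 400, above the annotated length of most entries.

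**Figure D3:**
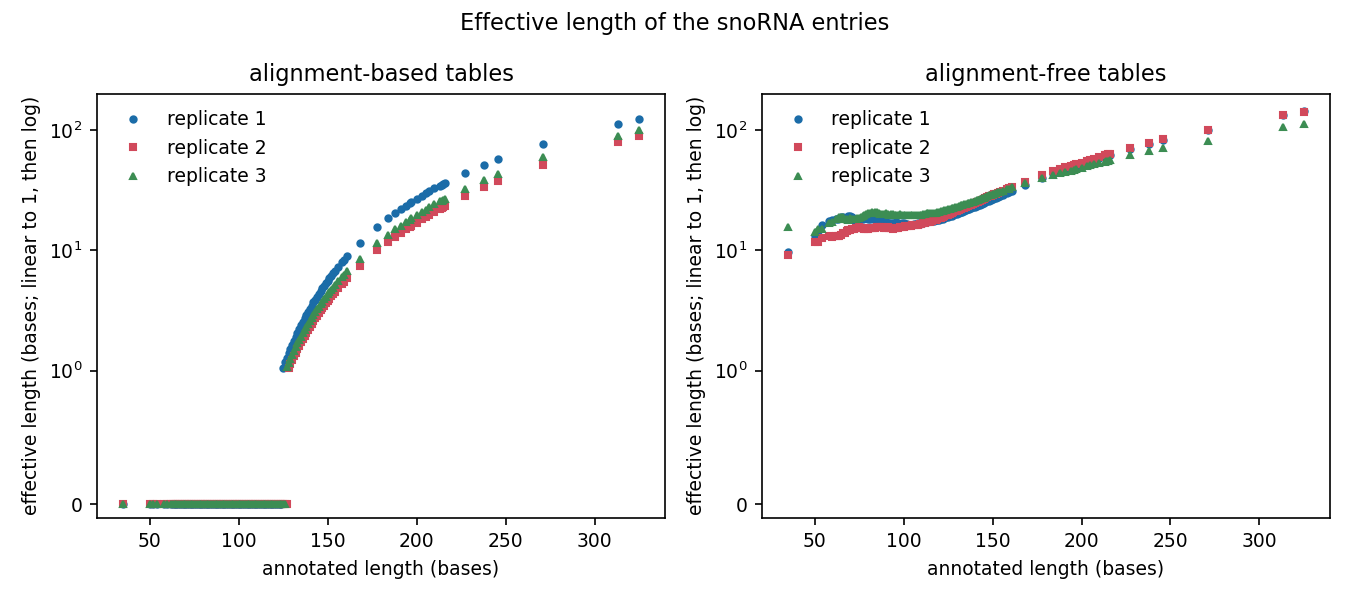
Effective length in bases (linear up to 1, then log) against annotated length in bases for the snoRNA entries, in the alignment-based (left) and alignment-free (right) tables; each point is 1 annotated length in 1 replicate. Alignment-based values are 0 up to 124, 127 and 126 bases in replicates 1 to 3 and start near 1 just above that, while alignment-free values never fall below 9.19 bases.

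Snord22, a box C/D snoRNA of the noncoding host gene Snhg1 that acts in the maturation of small-subunit ribosomal RNA, lay on this border with 126 bases. Its counts were 672, 2154 and 2025, its effective length was 1.17, 0 and 0 bases, and its TPM were 41081, 0 and 0. The library with the fewest counts was thus the only one with TPM above 0. The alignment-free tables gave 1030, 2849 and 3016 counts and 3234, 2520 and 3904 TPM, with replicate 2 lowest in TPM. Of the 8 snoRNA entries inside Snhg1, Snord22 was the only one with alignment-based counts.

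Short entries had counts in the alignment-free tables alone. A mean count of at least 10 over the 3 replicates was reached by 58 entries in the alignment-based tables and by 217 in the alignment-free tables, which included all 58. No entry reached it by alignment alone, and 1056 entries were at 0 in every table. Of all 55536 annotated gene entries, 13434 and 22340 reached the same minimum on the 2 routes, and 13378 did so on both. Of 282 entries under 80 bases, 0 reached the minimum in the alignment-based and 40 in the alignment-free tables. The numbers were 0 and 22 of 176 entries of 80 to under 100 bases, 41 and 138 of 1018 entries of 100 to under 200 bases, and 17 and 17 of 31 entries of at least 200 bases. The shortest entry with any alignment-based count had 121, 113 and 121 bases in replicates 1 to 3, and the shortest with any alignment-free count had 63, 62 and 62. For comparison, 9 and 19 of 51 entries typed as small Cajal body RNAs and 32 and 134 of 1385 entries typed as small nuclear RNAs (snRNA) reached the minimum on the 2 routes.

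Among entries under 100 bases, Gm24339 and Snord21 had the most alignment-free counts. Gm24339, a 76-base RNA with both box C and box D letters in an intron of Cep295, a gene of a centriole protein, had 1087, 942 and 866 alignment-free counts and none by alignment. Snord21, a 94-base box C/D snoRNA in Rpl5, a ribosomal protein gene, had 825, 608 and 892 counts and also none by alignment. Per 1e+06 protein-coding counts of the alignment-free tables, Gm24339 had 87.1, 59.5 and 56.3 and Snord21 had 66.1, 38.4 and 58.03, both highest in replicate 1. All entries under 100 bases were at 0 by alignment, so for these the comparison of routes is with 0 throughout.

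Host genes of box C/D clusters showed the same contrast. Rpl13a holds Snord32a, Snord33, Snord34 and Snord35a, a cluster also known from work on lipid-induced stress, and all 4 were at 0 in every alignment-based table. Snord32a had 78, 169 and 198 alignment-free counts, Snord33 had 27.9, 28.2 and 30.7, Snord34 had 24, 61 and 93, and Snord35a had 26, 18 and 48. Per 1e+06 protein-coding counts, replicate 3 was highest for Snord32a, Snord34 and Snord35a (12.9, 6.05 and 3.12), and replicate 1 for Snord33 (2.24, 1.78 and 2.00). Gas5, a noncoding RNA gene that also serves as a host, holds 10 entries, all of them at 0 by alignment. Its entry Gm22357 had 267, 373 and 449 alignment-free counts and Snord47 had 70.0, 31.3 and 141, whereas 4 of the 10 (Gm26224, Mir5117, Snord78 and Gm23212) were at 0 on both routes.

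**Figure D4:**
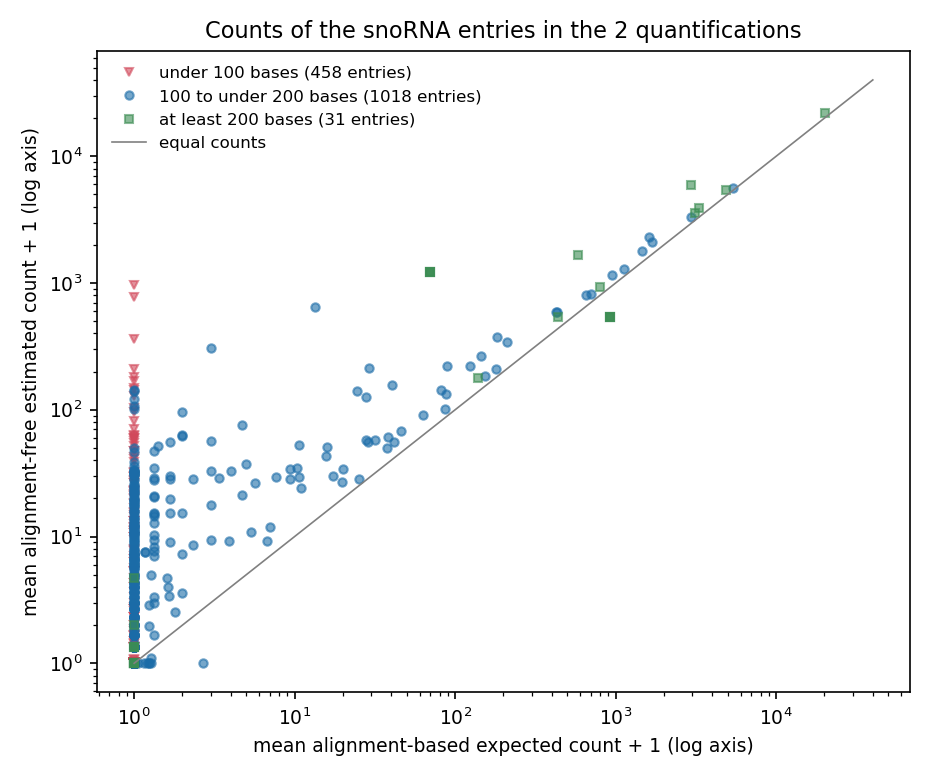
Mean alignment-free estimated count + 1 against mean alignment-based expected count + 1 (both log axes, mean of 3 replicates) for each of the 1507 snoRNA entries, by annotated length; the line marks equal counts. Entries under 100 bases all stand at 0 alignment-based counts, 17 of the 31 entries of at least 200 bases reach a mean of 10 on both routes, and Scarna10, at the upper right, lies near the line of equal counts.

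Among independently transcribed snoRNAs outside the U3 family, Snord118 (U8), which acts in the maturation of large-subunit ribosomal RNA, had 2, 6 and 3 expected counts against 63, 87 and 74 alignment-free counts. Snord13 (U13), which acts on small-subunit ribosomal RNA and is 104 bases long, had 0 against 19, 36 and 35. Both had under 10 expected counts in every library.

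The difference between the routes was tested on CPM, counts scaled to 1e+06 annotated counts, as alignment-free minus alignment-based log2(CPM + 0.5) within each library, for the 20556 genes with a mean count of at least 10 over both routes. The test was limma's treat against a bound of 1 log2 unit, and a gene was called at a Benjamini-Hochberg adjusted p under 0.05. Of all genes tested, 19.9% were called higher in the alignment-free tables and 0.0486% lower. Of 158 snoRNA entries tested, 34 were called higher (57 at an unadjusted p under 0.05) and 0 lower (4 unadjusted, and 4 with edgeR), so that the share called higher, 21.5%, was near that of all genes. The median difference was 1.36 log2 units for the snoRNA entries, or 1.06 with entries at 0 in every alignment-based table set to 3 counts per library, and 0.38 for all genes in both cases. The count of 34 became 44 without replicate 1, 19 without replicate 2 (4 lower) and 0 without replicate 3, and in that last setting no gene of any type was called.

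The 158 tested entries were of 2 kinds. A group of 100 had a mean expected count under 10 and passed through the alignment-free counts, which fixes their direction; 28 of them were called higher, and 72 of the 100 were at 0 in every alignment-based table. Snord118 was among these 100. The other 58 passed on both routes, and of these 6 were called higher (4.48% of all 13378 genes over both minimums), 0 lower (0%) and 52 were not called, with a median difference of -0.22. In a fit to those 13378 genes alone, 2 of the 58 snoRNA entries were called higher (7 unadjusted), against 3.58% of the genes, and 0 lower (4 unadjusted). In raw counts the alignment-free value of the 58 was 1.44 times the alignment-based one in the median, against 1.74 times for the other 13320 genes over both minimums, with 37 entries between 1 and 2 times, 17 at 2 times or more and 4 under 1.

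Gm24336, a 146-base entry in an intron of Cwf19l1, stood furthest apart among the 58. It had 14, 6 and 17 expected counts against 602, 626 and 711 alignment-free counts, groups that do not overlap. The difference was 4.16 ± 0.17 log2 units (adjusted p = 0.00352, limma treat), and it was not called without replicate 3 (4.25, adjusted p = 0.0982; range over the alternatives 2.2e-54 to 0.0982). Its alignment-free counts were 3.93, 2.81 and 3.68 times those of its host Cwf19l1. Its expected counts were 0.157, 0.0472 and 0.153 times those of the host, whose own expected counts were 89, 127 and 111. Reads of unspliced Cwf19l1 RNA cannot be told apart from reads of this entry.

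Snora7a, a box H/ACA snoRNA in Rpl32, another ribosomal protein gene, had 12.7, 51.7 and 19.7 expected counts against 85.1, 356 and 193 alignment-free counts. Replicate 2 was highest on both routes. The difference was 1.79 ± 0.22 log2 units (adjusted p = 0.0193), and it was not called without replicate 2 (adjusted p = 0.0720) or without replicate 3 (adjusted p = 0.116), with a range over the alternatives of 2.34e-05 to 0.116. The remaining 4 called entries of the 58 were copies of U3, described below.

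In TPM the routes parted in both directions. Of the 158 entries, 90 were called higher in the alignment-free tables (12.1% of all 20556 genes) and 39 lower (0.316%), on log2(TPM + 1), which understates the change of low genes. Among the 58 entries over the minimum on both routes, 8 were called higher (3.41% of the 13378 genes over both minimums) and 34 lower (0.404%), with a median of -2.64 log2 units. Of these 8, 3 had an effective length of 0 in at least 1 library and thus an alignment-based TPM of 0 there. Gm26447 differed by -4.39 (adjusted p = 2.36e-06), Gm22988 by -3.53 (5.62e-05) and Snord15b by -3.39 (9.29e-05), whereas their differences in counts, -0.47, -0.71 and -0.62, were not called. Scarna10 was called on neither scale (-0.69 in counts and -0.92 in TPM). Among the 100 entries that passed through the alignment-free counts, 82 were called higher in TPM and 5 lower, and 54 of the 100 had an effective length of 0 in at least 1 library. These 54 include 52 of the 82, and an effective length of 0 sets the alignment-based TPM to 0 in that library. Most of the 90 called higher thus came from entries whose direction was largely set by the minimum. Set beside the 12.1% of all genes, the 90 are therefore no result about snoRNA entries.

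Set against the typical protein-coding gene of the same library, most of the entries that reached the count minimum stood high on the TPM scale. The median TPM of protein-coding genes over the minimum was 5.50, 3.70 and 4.93 in replicates 1 to 3. Of 58 snoRNA entries, 53 were called above this median by more than 1 log2 unit (21.3% of 13434 genes) and 3 below (21.3%), with a median of 7.45 log2 units. Gm22988 lay 13.71 ± 0.55 log2 units above it (adjusted p = 1.24e-06), Gm26447 13.44 ± 0.34, Snord15b 12.83 ± 0.17, Scarna10 10.76 ± 0.13, Snora73b 10.19 ± 0.49, Snora73a 10.09 ± 1.04 and Snord17 9.98 ± 0.62 (limma treat, adjusted p of these 6 at most 9.34e-06). These levels are per effective length and include the values of under 5 bases given above. On so few bases, a count near the minimum already gives a TPM far above the reference. Gm24336, with 14, 6 and 17 expected counts, had 218, 69.5 and 225 TPM. For such entries the direction was thus largely set by the minimum. Set beside the 21.3% of all genes, the 53 are therefore no result about snoRNA entries. By the alignment-free route 205 of 217 entries were above (23.2% of 22340 genes) and 0 below, with a median of 3.11.

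The 5 entries that were not above were listed at 0 TPM in at least 1 library. Gm22786, Snora26 and Gm24233, of 121 or 122 bases, were the 3 called below, at -2.50 each, and all of them were listed at 0 TPM in every library at an effective length of 0, with mean counts of 14.7, 40.7 and 44.7. Snord22 was not called (2.61 ± 8.68, adjusted p = 0.700), but without replicate 1, the library with TPM above 0, it was called below (-2.39, adjusted p = 2.84e-14, from 2 libraries listed at 0 TPM). Snora61, of 130 bases, was not called either (3.71 ± 5.61, adjusted p = 0.219); it had 0, 983 and 412 TPM. Of the 54 entries with an effective length above 0 in every library, 53 were above and 0 below.

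U3, the box C/D snoRNA needed for the first cleavages of the ribosomal RNA precursor, varied most between libraries among the 8 families and host groups compared. It had 10 entries: Rnu3a with 213 and 214 bases at chr10:40258467-40258680, and 4 copies of Rnu3b inside Tex14 on chromosome 11, annotated with 215 bases and again with 216. The shorter form of each lies inside the longer and is 1 base shorter, so both forms share their reads. Rnu3a and Rnu3b1 differ from each other by 31 or 32 bases. All 10 entries were summed as the U3 family. Summed, they had 1463, 17537 and 3562 expected counts in replicates 1 to 3 and 4535, 30090 and 9325 alignment-free counts. In counts per 1e+06 protein-coding counts this was 190, 1747 and 357, a range of 9.22-fold, and 363, 1900 and 607 by the alignment-free route, 5.23-fold. Replicate 2 was far above the others on both routes, and U3 made up 3.05%, 23.1% and 6.47% of the snoRNA counts of replicates 1 to 3.

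The other families spread less. The U17 pair, Snora73a and Snora73b, which lie in Rcc1 and act in ribosomal RNA cleavage although they carry H/ACA boxes, had 510, 985 and 547 counts per 1e+06 protein-coding counts (1.93-fold). Snord17 in Snx5, a sorting nexin gene, had 382, 631 and 528 (1.65-fold), also highest in replicate 2. Scarna10 had 2490, 2146 and 1981 (1.26-fold) and the Rps3 pair 513, 399 and 373 (1.38-fold), both highest in replicate 1. The Eif4a1 entries had 1129, 568 and 610 (1.99-fold), again highest in replicate 1, and the Eif4a2 entries had 188, 142 and 239 (1.69-fold). The Snhg1 entries, in effect Snord22, had 87.1, 215 and 203 (2.46-fold), lowest in replicate 1. All snoRNA entries other than U3 together had 6031, 5823 and 5171 (1.17-fold). With 1 library per amount of starting RNA, none of these differences between libraries has a test.

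**Figure D5:**
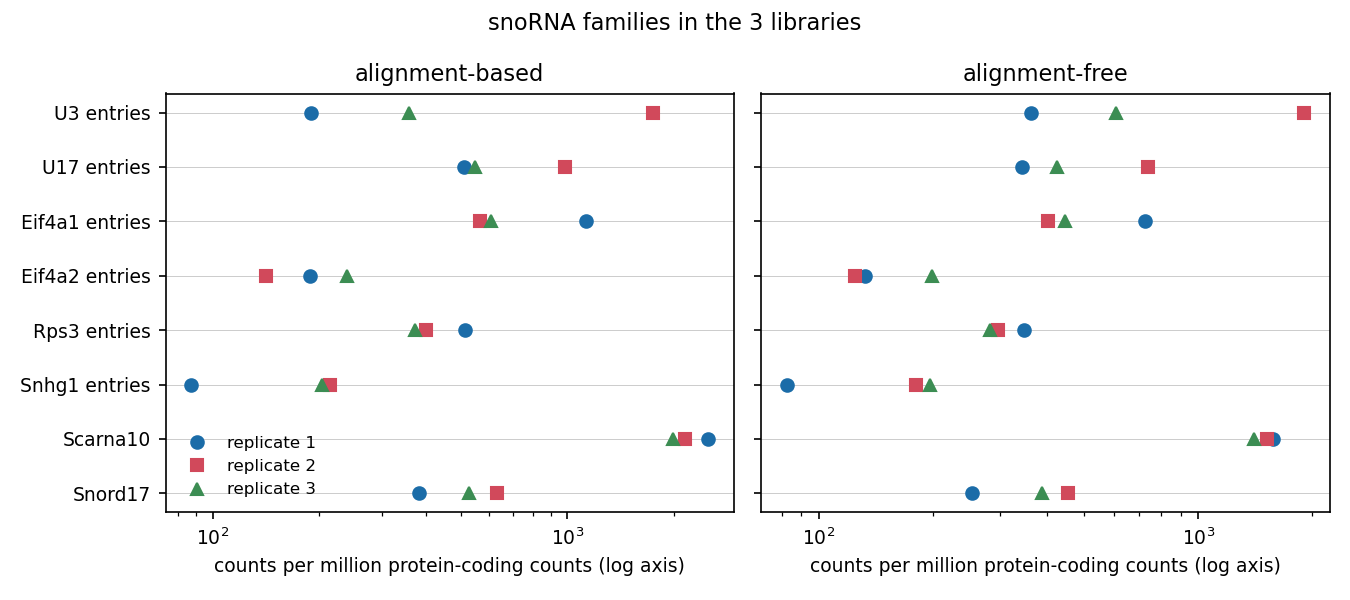
Counts per 1e+06 protein-coding counts (log axis) of 8 snoRNA families or host groups in the alignment-based (left) and alignment-free (right) tables; colours and symbols are the 3 replicates. U3 spreads from 190 to 1747 by alignment, with replicate 2 highest, while Scarna10 spans 1981 to 2490.

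Entry by entry, replicate 2 was highest for 40 of the 58 entries over the minimum on both routes, replicate 1 for 11 and replicate 3 for 7, on the same scale. Without the 10 U3 entries replicate 2 was highest for 30 of 48. Over all 13378 genes that passed both minimums, replicate 1 was highest for 51.7%, replicate 2 for 25.9% and replicate 3 for 22.4%. The median SD between replicates was 0.76 log2 units for the 58 snoRNA entries and 0.38 for all these genes. The 58 include the 10 U3 entries, many of which share reads, and the SD was not computed without them. Replicate 2 also had the largest share of ribosomal RNA and the smallest amount of starting RNA; their part in this order was not tested.

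The routes divided U3 reads between its entries differently. Each 215-base Rnu3b entry had 196, 2120 and 462 expected counts, but 2.84e-06, 1620 and 2.34 alignment-free counts. Each 216-base entry had 27.1, 167 and 13.2 expected counts and 557, 2040 and 1042 alignment-free counts. The longer Rnu3b form was thus lower than the shorter in every library by alignment and higher in every library without it. For Rnu3a, the 213-base form had 695, 13222 and 4028 of the 2307, 15451.5 and 5147 alignment-free counts of both forms. Without alignment the longer Rnu3a form was thus higher in replicate 1 and lower in replicates 2 and 3. For the 216-base form, of which Rnu3b1 stands for all 4 since their values are identical, the difference was 3.59 ± 1.05 log2 units (adjusted p = 0.0321, limma treat). It was not called without replicate 2 (adjusted p = 0.0579) or replicate 3 (adjusted p = 0.105), nor in the fit to genes over both minimums (adjusted p = 0.0533) or with no minimum (adjusted p = 0.0529), with a range over the alternatives of 5.12e-37 to 0.105. For the 215-base form the difference, -3.94 ± 2.34, was not called (adjusted p = 0.133), but it was with DESeq2 size factors (adjusted p = 0.0272), TMM, edgeR or without replicate 2 (adjusted p = 0.0396).

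Several snoRNAs had far more counts than a gene that holds them. Scarna10 had 392, 199 and 403 times the expected counts of Ncapd2 in replicates 1 to 3, whose own counts were 49.0, 108 and 49. Snora73a had 46.2, 82.5 and 35.0 times and Snora73b 69.5, 58.6 and 40.7 times the counts of Rcc1, a gene of the Ran exchange factor, which had 34, 70 and 72. Rcc1 is 1 of 2 annotated genes that hold this pair on the same strand. It was named because a protein-coding gene was taken first, and the other was not compared. These ratios therefore need not be to the gene from which the pair is cut. Snord15b had 11.3, 4.58 and 7.01 times the counts of Rps3 and Snord17 had 6.27, 11.0 and 9.81 times those of Snx5. All of these exceeded the host named here in every library, on both routes.

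Eif4a1 and Eif4a2 entries stood closer to their hosts. Gm22988 had 3.52, 1.07 and 1.33 times the expected counts of Eif4a1, which had 2226, 3722 and 3262 itself and 129 ± 9.07 TPM. Its neighbour Gm25835, a 144-base RNA with box C and D letters in an intron of Eif4a1, had 0.390, 0.463 and 0.537 times. Gm26447 had 0.550, 0.491 and 0.792 times the counts of Eif4a2, in which Snora81 had 13.2, 78.0 and 94.5 counts, Snord2 had none on either route, and Gm24201 had 0, 0.72 and 0 expected counts and no alignment-free count. Gm22988 and Gm25835 thus differed in which library was highest, although they lie in 1 host. The ratios are of counts and not per length. Where an entry overlaps an exon of a gene that holds it (Scarna10, Gm22988, Gm26447, Snord15b and Snora73a), reads could be given to either. For entries in an intron, reads of unspliced host RNA cannot be told apart from reads of the snoRNA.

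Most entries that reached the count minimum lay inside another gene on the same strand. A total of 666 entries lay inside another gene on the same strand, in 309 host genes of which 245 were protein-coding. Where several genes held an entry, a protein-coding one was taken as its host, which favours that number. Of 507 inside an intron, 33 reached the minimum by alignment and 119 without, and of 159 that overlapped a host exon 23 and 51 did. Of 622 outside any other gene, 2 and 8 reached it. The entries inside a gene that reached the minimum by alignment include the 8 Rnu3b entries in Tex14, which share their reads. Of 219 with a gene on the other strand only, 0 reached it by alignment and 39 in the alignment-free tables, led by Gm23772 opposite B3gnt2 with 0 against 173, 133 and 109 counts. The strand setting is not given in the sources used here, so for these 39 reads from the gene on the other strand cannot be told apart from reads of the snoRNA. For entries inside an intron, the same holds for reads of unspliced host RNA.

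The imprinted snoRNAs of the brain had no counts. Snhg14, the long noncoding host on chromosome 7 that spans the Prader-Willi syndrome region and is expressed from the paternal allele in neurons, held 208 snoRNA entries, and all 208 were at 0 in every table of both routes. Snhg14 itself had 54.0, 18.6 and 29.3 expected counts (1.40, 0.23 and 0.63 TPM) and 165, 134 and 182 alignment-free counts. For an entry that can receive alignment-based counts, 0 counts leave as many as 3 possible. That is 0.266, 0.12 and 0.152 CPM in replicates 1, 2 and 3, here scaled to all expected counts. Most of the Snhg14 entries have under 100 bases, with a median of 79. Under 100 bases no snoRNA entry of any family had alignment-based counts, so for these the alignment-based 0 sets no bound. On chromosome 7, 147 snoRNA entries share their sequence with another entry, and the treatment of reads that fit several copies is not given.

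Few genes of proteins that bind, assemble or process snoRNAs differed from the typical gene of the fraction by more than the bound. Of 9 core proteins 8 passed the minimum, and 1 was called above the median protein-coding gene and 0 below. The core protein above was Nop56, a box C/D protein, with 23.4, 22.4 and 25.3 TPM and a level of 2.12 ± 0.21 log2 units (adjusted p = 0.00127, limma treat). Fbl, the methyltransferase fibrillarin, had 9.79, 10.7 and 9.35 TPM and Dkc1, the pseudouridine synthase dyskerin, had 7.87, 2.47 and 2.73, and neither was called. Of 10 assembly factors 0 were above and 1 below, Naf1, an H/ACA assembly factor, at -1.76 ± 0.21 (adjusted p = 0.00619). Of 6 processing factors 2 were above and 0 below, the nuclear exonuclease gene Xrn2 at 3.17 ± 0.48 (adjusted p = 0.000256) and Tgs1, which encodes the enzyme that trimethylates the cap of U3, at 1.86 ± 0.50 (adjusted p = 0.0114). Over all genes tested 21.3% were called above and 21.3% below.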

How the data were processed

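Total RNA-seq of chromatin-fraction RNA was available for 3 replicates of 1 group. The authors deposited, per library, a gene table of expected counts (estimated counts that are not whole or scaled) and TPM made from an alignment to the transcriptome on mm10 and GENCODE M21, per the deposited description files, with the column names of RSEM, per the file headers. They also deposited a transcript table of estimated counts and TPM made without an alignment file, with the column names of kallisto, per the file headers. TPM was scaled by the authors to 1e+06 over all entries of each file. Effective lengths were used as deposited, per the file headers. The treatment of adapters, multi-mapping reads and strand, and the aligner with its version, is not given in the sources used here.

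snoRNA entries were matched by gene ID, and sequences and coordinates came from the M21 transcripts and annotation. Paired differences and levels were tested with limma 3.58.1 (treat, bound 1, R 4.3.3), fitted over all genes past a mean count of 10, with pseudocounts of 0.5 CPM and 1 TPM and Benjamini-Hochberg adjustment at 0.05, after a test on simulated data. Alternatives used edgeR 4.0.16 (TMM, glmTreat on rounded counts), DESeq2 1.42.0 size factors, other minimums and pseudocounts, posterior means and 2 of the 3 replicates. The entries named in the text were the 10 highest by mean TPM, expected count and alignment-free count, the 5 largest called differences, fixed families and hosts, and a few chosen after their values were seen (Snora7a, Gm23772, Snora61 and the 3 entries below the reference). Gene lists and snoRNA entries were chosen with earlier results of these data known. Snord3a and the Snhg1 snoRNAs Snord25 to Snord31 were not found under those names. Floors of 3 counts cover counting error only, as these reads carry no molecular identifiers and need not be independent molecules. Such floors set no bound at lengths where no snoRNA entry had alignment-based counts.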

Additional observations from a re-analysis of the deposited data

How the results depend on the processing

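The number of snoRNA entries called higher in alignment-free counts (34) was 87 with CPM of protein-coding genes or a pseudocount of 0.1 CPM, 65 with TMM, 99 with edgeR, 11 at a minimum mean count of 100 and 2 with a minimum of 10 on both routes, an alternative added after seeing the data; it was 0 to 44 when 1 replicate was left out. The number called lower (0) was 4 with DESeq2 size factors, TMM or edgeR, and 0 to 4 when 1 replicate was left out; these 4 entries are the 215-base copies of Rnu3b. The median difference of all genes was 0.38 log2 units, 0.14 with DESeq2 size factors, 0.18 with TMM and 0.54 with CPM of protein-coding genes, so differences are relative to that shift. In TPM, 90 higher became 11 at a minimum of 100 and 47 with no minimum, and 39 lower became 23 and 1. The number above the reference level (53) was 205 in the alignment-free tables and 29 at a minimum of 100. The number below (3) was 0 in the alignment-free tables, 0 at a minimum of 100, 10 with no minimum and 0 without entries at effective length 0, also added after seeing the data. The share of counts (0.339%) was 0.517% without the ribosomal RNA locus, and that of TPM (36.0%) was 6.89% in the alignment-free tables and 20.999% without Gm22988, Gm26447 and Snord15b, added after seeing the data. The level of Snord22 was -2.39 (without replicate 1, the replicate with TPM above 0) to 5.19 when 1 replicate was left out. Fewer genes are tested at a higher minimum; the cause of the other changes was not tested. The other 44 alternatives for these counts and shares kept within 1.5 times or 1 SD. The routes were compared within libraries throughout, and with 1 group there were no groups of samples to pair. Depth limits the weakly counted entries. Those under a mean of 10 counts over both routes were not tested for a difference between routes. For the alignment-based level, those under a mean of 10 expected counts were not tested.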

Other observations

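Entries with box C and D letters and entries with ACA letters differed in length and in how many had counts. The letters TGATGA in the first 20 bases together with CTGA in the last 15 bases were found in 305 of 1507 entries (20.2%), and ACA 3 bases from the 3′ end in 276 (18.3%), on the transcript strand; 4 entries held both. Among 1383 transcripts typed snRNA the shares were 0% and 0.94%. Of the box C/D snoRNAs by symbol 63.0% held the C and D letters, of the H/ACA snoRNAs by symbol 83.3% held ACA, and of the entries with other names 17.3% and 17.8%. The 305 entries with C and D letters had a median length of 79 bases, and 297 of them were at an effective length of 0 in all 3 libraries. A mean count of 10 was reached by 7 of the 305 in the alignment-based tables and by 48 in the alignment-free tables. The 272 entries with ACA and without both C and D letters had a median length of 132 bases, and 31 and 77 of them reached it. Among the 930 entries with neither, 20 and 92 did. A match is a description of letters and not a tested box, and the groups differ in length.

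Gm23722, a 130-base entry in an intron of Rnf149, a ubiquitin ligase gene, had 6, 0 and 0 expected counts against 525, 162 and 223 alignment-free counts, highest in replicate 1 on both routes. Gm25776 in Gtf2a1, a gene of a general transcription factor subunit, had 993, 286 and 809 expected counts and was lowest in replicate 2, unlike U3 and U17.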
